A study of Mus musculus with 8 samples.

Results

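Expression of 10 megakaryocyte and platelet genes, of 23284 in the count table, was followed in mouse bone marrow stem and progenitor cells sorted by a reporter of histamine synthesis. They were chosen by gene symbol and are Pf4, Ppbp, Vwf, Gp1ba, Gp1bb, Gp5, Gp6, Gp9, Selp and Clec1b. The cells were LSK cells, which lack lineage markers and carry Sca-1 and c-Kit, from Hdc-GFP mice of C57BL/6 background, in which green fluorescent protein reports Hdc, the gene of the histamine-forming enzyme histidine decarboxylase. The sorted fractions, Hdc-GFPhi (n = 4 libraries) and Hdc-GFPlo (n = 4 libraries), shared strain, reporter and the LSK gate, and differed in the GFP level. Each library came from 2000 cells. The labels give no age, sex or number of animals.

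Megakaryocytes are the large marrow cells that shed platelets. The chemokines Pf4 and Ppbp are packed into platelet alpha granules with von Willebrand factor (Vwf) and P-selectin (Selp), which are released or moved to the surface on activation. Gp1ba, Gp1bb, Gp9 and Gp5 are the subunits of the platelet receptor that binds von Willebrand factor, Gp6 is the platelet collagen receptor and Clec1b (CLEC-2) is the receptor for podoplanin. In the mouse, a subset of haematopoietic stem cells that is biased towards platelets carries Vwf transcripts. Endothelial cells make Vwf and Selp as well. GATA and ETS family factors, such as Gata1 and Fli1, are the known activators of megakaryocyte genes.

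The letters before the start sites were read for GATA and ETS words, and are printed for members at different levels in the data. RefSeq held a promoter for 9 of the 10 genes on GRCm38.p6, and the 250 bases before each start were searched. Words of the GATA kind (the words AGATAA or TGATAA, and with a last G the words AGATAG or TGATAG, both strands) occurred in 5 of the 9 windows (Gp1ba, Gp1bb, Gp5, Gp6 and Clec1b), and in 26.5% of 32851 windows of the same length. Words of the ETS kind (the words AGGAAG or CGGAAG, both strands) occurred in 6 of the 9 (Pf4, Gp1ba, Gp1bb, Gp5, Gp9 and Selp), and in 39.2% of all windows. Both kinds occurred in 3 (Gp1ba, Gp1bb and Gp5), and in 9.21% of all windows. No GATA word overlapped an ETS word in these windows. All 6 ETS words lay on the minus strand relative to the gene, so on the gene's strand they read as CTTCCT or CTTCCG. The CTTCCG word was in Gp1bb, whose window is not printed here. In Pf4 the ETS word began 9 bases before the start. A match of letters is a description and not a site of binding. In the sequences, written 5′ to 3′ on the gene's strand, capitals mark the GATA and ETS words.
Gp9, chr6:87777820-87778069, plus strand: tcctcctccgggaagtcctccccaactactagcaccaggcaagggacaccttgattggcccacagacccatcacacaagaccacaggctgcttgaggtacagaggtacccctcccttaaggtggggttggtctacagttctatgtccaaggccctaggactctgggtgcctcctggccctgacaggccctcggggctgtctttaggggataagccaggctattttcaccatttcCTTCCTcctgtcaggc
Pf4, chr5:90772185-90772434, plus strand: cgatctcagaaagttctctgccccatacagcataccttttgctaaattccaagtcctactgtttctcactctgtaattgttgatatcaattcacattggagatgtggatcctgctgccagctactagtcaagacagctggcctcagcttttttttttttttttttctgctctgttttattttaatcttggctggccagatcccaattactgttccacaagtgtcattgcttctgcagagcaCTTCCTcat
Gp5, chr16:30310782-30311031, minus strand: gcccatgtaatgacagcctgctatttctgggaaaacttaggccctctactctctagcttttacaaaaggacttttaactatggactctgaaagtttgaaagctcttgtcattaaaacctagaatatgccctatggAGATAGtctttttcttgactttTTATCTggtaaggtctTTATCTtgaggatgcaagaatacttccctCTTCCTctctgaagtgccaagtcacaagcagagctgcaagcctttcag
Gp1ba, chr11:70638872-70639121, plus strand: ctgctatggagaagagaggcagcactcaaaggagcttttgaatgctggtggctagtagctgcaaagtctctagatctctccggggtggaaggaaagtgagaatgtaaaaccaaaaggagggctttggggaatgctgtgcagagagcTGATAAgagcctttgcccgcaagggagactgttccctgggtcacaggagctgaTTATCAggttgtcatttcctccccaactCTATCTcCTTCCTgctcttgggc
Selp, chr1:164115014-164115263, plus strand: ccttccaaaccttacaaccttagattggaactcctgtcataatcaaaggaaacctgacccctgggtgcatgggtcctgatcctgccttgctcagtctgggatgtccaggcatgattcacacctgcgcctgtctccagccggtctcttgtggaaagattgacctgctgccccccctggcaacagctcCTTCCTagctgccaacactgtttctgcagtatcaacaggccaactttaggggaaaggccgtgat
Gp6, chr7:4397745-4397994, minus strand: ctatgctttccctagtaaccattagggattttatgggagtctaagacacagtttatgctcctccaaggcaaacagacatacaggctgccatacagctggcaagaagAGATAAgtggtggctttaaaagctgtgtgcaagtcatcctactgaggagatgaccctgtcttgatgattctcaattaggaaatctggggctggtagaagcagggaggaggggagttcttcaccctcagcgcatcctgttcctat

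Library totals ran from 21041170 to 22470121 counts in Hdc-GFPhi and from 16726179 to 23051277 in Hdc-GFPlo. The reporter's own gene, Hdc, averaged 12 ± 2.12 CPM in Hdc-GFPhi, against 12.1 ± 1.21 CPM in Hdc-GFPlo (mean ± SD of 4 libraries each), where CPM are counts scaled to library size with TMM factors. The cell type label of Hdc-GFPhi replicate 4 reads GFP+, and those of the other Hdc-GFPhi libraries read GFPhi. The genes of the LSK gate were abundant in both fractions. Kit had 1299 to 1537 CPM in the Hdc-GFPhi libraries and 748 (replicate 3) to 1470 CPM in the Hdc-GFPlo libraries. Ly6a, which encodes Sca-1, had 102 to 144 CPM in Hdc-GFPhi libraries, against 96.4 to 135 CPM in Hdc-GFPlo libraries. Of 9 genes of the gate and its subsets, 1 was called: Cd48, a surface protein of progenitors beyond the stem cell, was lower in Hdc-GFPhi (edgeR adjusted p = 0.0228). At an unadjusted p under 0.05, 4 of the 9 were higher, with log2 fold changes of 0.44 for the stem cell factor Hlf to 0.80 for the stem cell surface marker Slamf1, and 2 were lower. Of 10 tested erythroid genes and 4 tested basophil and mast cell genes, none was called by edgeR, while 3 erythroid genes and 1 basophil gene had an unadjusted p under 0.05. The summed basophil and mast cell markers ran from 12.8 to 70.6 CPM in Hdc-GFPhi libraries, against 7.19 to 97.5 CPM in Hdc-GFPlo libraries. The globins Hba-a1, Hba-a2 and Hbb-b2 had 0 counts in every library. Whether each replicate is a separate animal is not stated in the labels, so p-values measure the spread between these libraries, which may be technical.

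In both fractions, transcripts of the von Willebrand factor receptor, of Vwf, Selp and Pf4 were present at low to moderate levels, while those of the receptors Gp6 and Clec1b were at or near 0. All 8 genes with enough counts to test had a higher fitted level in Hdc-GFPhi, by 1.18-fold for Gp1bb to 1.81-fold for Gp5. None of the 8 passed an adjusted p of 0.05 (edgeR quasi-likelihood, Benjamini-Hochberg over 13300 genes), and DESeq2 and limma voom also called 0. Among the 8 genes, 3 (Gp1ba, Gp5 and Gp9) had an unadjusted edgeR p under 0.05. Over all tested genes, 0.241% were called higher and 0.707% lower in Hdc-GFPhi, and 5.33% were higher at an unadjusted p under 0.05. The median log2 fold change was 0.44 over the 8 genes and 0 over all 13300, of which 49.9% were above 0. The filter on low counts kept 8 of the 10 genes, so these counts leave out Gp6 and Clec1b.

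**Figure D1:**
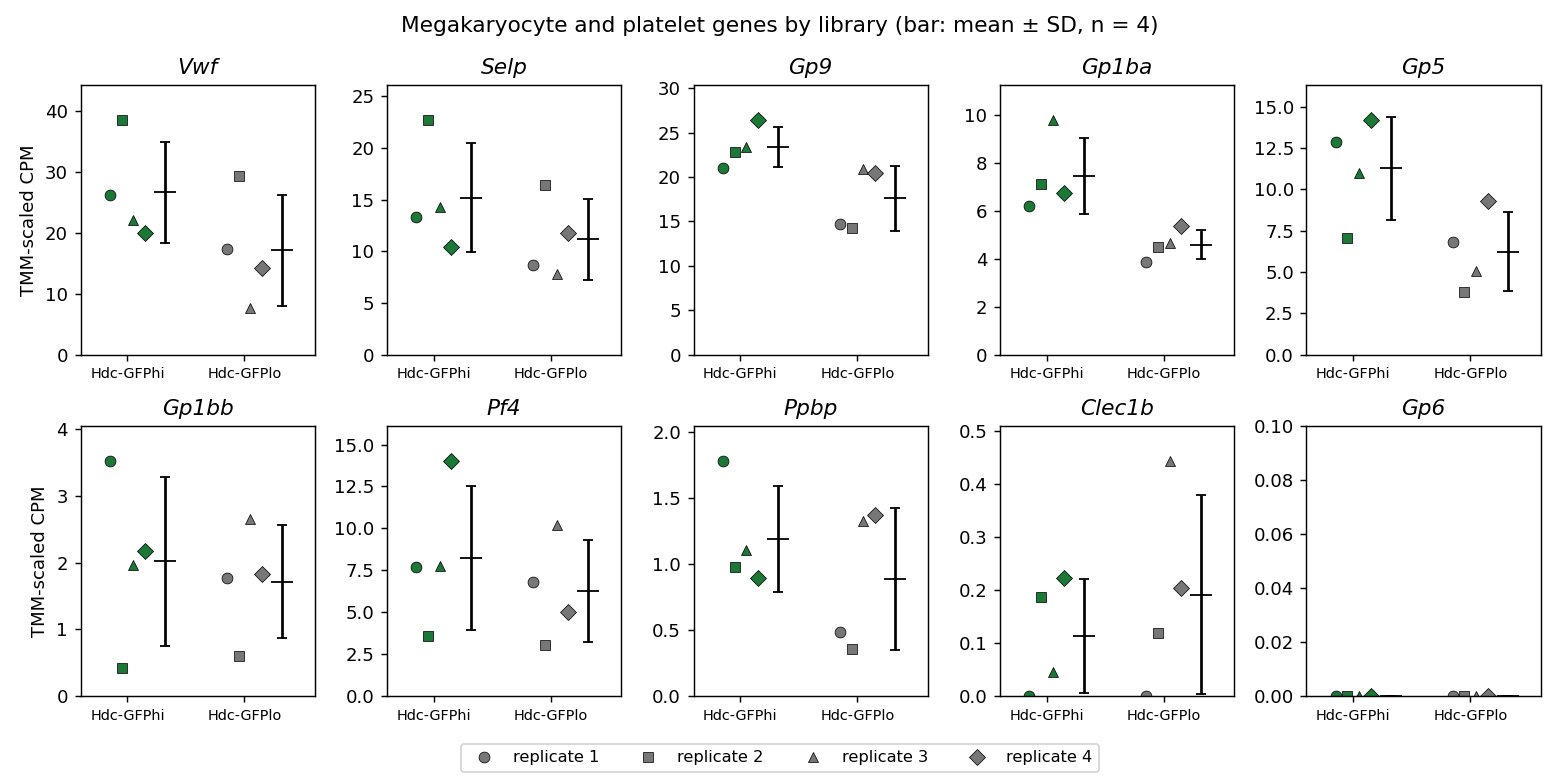
TMM-scaled CPM (vertical axis, linear) of the 10 genes in each library, Hdc-GFPhi left and Hdc-GFPlo right, with the marker shape giving the replicate number and the bar the mean ± SD (n = 4). Gp9 and Gp1ba show no overlap between fractions, while Gp6 is at 0 in all 8 libraries.

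Of the 4 subunits of the von Willebrand factor receptor, Gp1ba, Gp9 and Gp5 had the smallest p of the 8 tested genes, and Gp1bb had the largest. Gp1ba, the subunit that binds von Willebrand factor, had 6.2, 7.14, 9.79 and 6.73 CPM in Hdc-GFPhi replicates 1 to 4, against 3.85, 4.51, 4.65 and 5.37 CPM in Hdc-GFPlo replicates 1 to 4. Every Hdc-GFPhi library was above every Hdc-GFPlo library. The log2 fold change was 0.70 ± 0.22 (SE, 95% interval 0.22 to 1.18, edgeR adjusted p = 0.216). Gp9, the small subunit that the receptor needs to reach the surface, had 21, 22.8, 23.4 and 26.4 CPM in Hdc-GFPhi, against 14.7, 14.2, 20.9 and 20.5 CPM in Hdc-GFPlo. The fractions again did not overlap, although the lowest Hdc-GFPhi library and the highest Hdc-GFPlo library lay close together. The log2 fold change of Gp9 was 0.41 ± 0.17 (95% interval 0.05 to 0.77, edgeR adjusted p = 0.368). Such separation with the higher values in Hdc-GFPhi was seen for 2 of the 8 genes and for 3.38% of all tested genes, or 6.92% of them with either fraction higher.

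Gp5, the subunit that thrombin can cleave, had 12.9, 7.05, 11 and 14.2 CPM in Hdc-GFPhi replicates 1 to 4, against 6.81, 3.8, 5.04 and 9.28 CPM in Hdc-GFPlo replicates 1 to 4. Only Hdc-GFPhi replicate 2 fell within the range of Hdc-GFPlo. Its log2 fold change, 0.85 ± 0.29 (95% interval 0.22 to 1.48, edgeR adjusted p = 0.254), was the largest of the 8 genes. Gp1bb, the subunit disulphide-linked to Gp1ba, had 3.52, 0.42, 1.96 and 2.18 CPM in Hdc-GFPhi, against 1.77, 0.594, 2.66 and 1.83 CPM in Hdc-GFPlo. Replicate 2 was lowest in each fraction, with 9 and 10 counts, and the fractions overlapped widely. Gp1bb had a log2 fold change of 0.24 ± 0.56 (95% interval -0.99 to 1.46, edgeR adjusted p = 0.935), which became -0.17 when Hdc-GFPhi replicate 1 was left out, or -0.04 when Hdc-GFPlo replicate 2 was. Gp1bb lies next to the septin gene Sept5, for which no row was found in the count table. As a sum, the 4 subunits had 44.2 ± 5.13 CPM in Hdc-GFPhi, against 30.1 ± 6.2 CPM in Hdc-GFPlo (mean ± SD of 4 libraries each).

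Von Willebrand factor and P-selectin, which share storage granules in platelets and endothelium, varied together between libraries. Vwf had 26.2, 38.5, 22.1 and 19.9 CPM in Hdc-GFPhi replicates 1 to 4, against 17.4, 29.4, 7.59 and 14.2 CPM in Hdc-GFPlo replicates 1 to 4. Replicate 2 was highest in each fraction, and the 29.4 CPM of Hdc-GFPlo replicate 2 lay above 3 of the 4 Hdc-GFPhi libraries. For Vwf the log2 fold change was 0.64 ± 0.33 (95% interval -0.08 to 1.36, edgeR adjusted p = 0.539). It was 1.03 when Hdc-GFPlo replicate 2 was left out and 0.41 when either Hdc-GFPhi replicate 2 or Hdc-GFPlo replicate 3 was. Selp had 13.3, 22.7, 14.3 and 10.4 CPM in Hdc-GFPhi, against 8.63, 16.4, 7.81 and 11.8 CPM in Hdc-GFPlo. Replicate 2 was again highest in each fraction and the fractions overlapped. Selp had a log2 fold change of 0.45 ± 0.28 (95% interval -0.15 to 1.05, edgeR adjusted p = 0.638).

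Because endothelial cells also make Vwf and Selp, endothelial markers were set beside them. Of 15 markers listed, 12 had enough counts to test, and their summed level ran from 685 to 929 CPM in Hdc-GFPhi and from 634 to 856 CPM in Hdc-GFPlo. Most of this sum came from Egfl7, Eng and Pecam1, which stem cells also express. The junction gene Cdh5, a defining endothelial marker, had 12 counts over all Hdc-GFPhi libraries and 15 over all Hdc-GFPlo libraries, and Mmrn2 had 1 count in Hdc-GFPhi and 0 in Hdc-GFPlo. Sele, the endothelial relative of Selp, had 31 counts over Hdc-GFPhi and 15 over Hdc-GFPlo. Other listed markers had more counts. Plvap had 362 over Hdc-GFPhi and 370 over Hdc-GFPlo, Cldn5 had 288 and 96, and Kdr had 100 and 129. Stab2 had 101 and 159, and Flt4 had 102 and 62. Robo4 averaged 72 CPM in Hdc-GFPhi, against 60.3 CPM in Hdc-GFPlo. At an unadjusted p under 0.05, 4 of the 12 were higher in Hdc-GFPhi, with log2 fold changes of 0.39 (Eng) to 1.32 (Cldn5). Of the 12, 1 was lower (Egfl7, -0.33). The part of endothelial cells in the levels of Vwf and Selp was not tested. Among the 4, the junctional adhesion protein Esam was called higher in Hdc-GFPhi (log2 fold change 0.88 ± 0.17, edgeR adjusted p = 0.0253). Esam missed the threshold in 5 of 8 fits that each lacked a library (Hdc-GFPhi replicates 1, 2 and 3, Hdc-GFPlo replicates 1 and 4), at edgeR adjusted p values of up to 0.0929. Esam, like Vwf and Selp, was highest in replicate 2 of each fraction, at 134 CPM in Hdc-GFPhi, against 75.8 CPM in Hdc-GFPlo. In bulk libraries, more cells of a type and more RNA per cell cannot be told apart.

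The granule chemokines varied widely within each fraction. Pf4 had 7.67, 3.55, 7.75 and 14 CPM in Hdc-GFPhi replicates 1 to 4, against 6.77, 3.03, 10.2 and 5.02 CPM in Hdc-GFPlo replicates 1 to 4. Replicate 2 was lowest in each fraction, and the coefficient of variation was 52.3% in Hdc-GFPhi and 48.6% in Hdc-GFPlo. The log2 fold change of Pf4 was 0.40 ± 0.41 (95% interval -0.48 to 1.28, edgeR adjusted p = 0.817), and it was 0.01 when Hdc-GFPhi replicate 4 was left out and 0.75 when Hdc-GFPlo replicate 3 was. Ppbp, whose gene lies next to Pf4, had 40, 21, 25 and 20 raw counts in Hdc-GFPhi, against 11, 6, 24 and 27 raw counts in Hdc-GFPlo. The low values were in Hdc-GFPlo replicates 1 and 2, and the fractions overlapped. Ppbp had a log2 fold change of 0.43 ± 0.50 (95% interval -0.66 to 1.52, edgeR adjusted p = 0.845).

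The platelet activation receptors Gp6 and Clec1b were close to absent from the counts. Gp6 had 0 counts in all 8 libraries, which allows up to 0.0341 CPM over the pooled Hdc-GFPhi libraries and 0.0385 CPM over the pooled Hdc-GFPlo libraries (3 counts per pooled total, counting error only). Clec1b had 0, 4, 1 and 5 counts in Hdc-GFPhi replicates 1 to 4, against 0, 2, 8 and 4 counts in Hdc-GFPlo replicates 1 to 4. Each fraction had 1 library without a count, and no difference was detectable at this depth (exact two-sided permutation test on CPM, p = 0.571, where the smallest p that 70 assignments allow is 0.0286). Signalling partners of these receptors were detected in every library. The kinase Syk, which both receptors use, had 310 ± 21.2 CPM in Hdc-GFPhi, against 312 ± 60.2 CPM in Hdc-GFPlo (mean ± SD of 4 libraries each). Fcer1g, the signalling chain that Gp6 needs, had 23.7 ± 3.38 CPM in Hdc-GFPhi, against 29.5 ± 2.87 CPM in Hdc-GFPlo. Podoplanin (Pdpn), the Clec1b ligand, had 0 counts over all Hdc-GFPhi libraries and 5 over all Hdc-GFPlo libraries.

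Per length of transcript, the 10 genes spanned a wide range and kept nearly the same order in both fractions. Levels between genes are given as CPM per kb of the longest protein-coding transcript in GENCODE M21. Gp9 led with 26.6 ± 2.58 CPM per kb in Hdc-GFPhi, against 20 ± 4.1 in Hdc-GFPlo (mean ± SD of 4 libraries each). Pf4 followed with 14 ± 7.33 CPM per kb in Hdc-GFPhi, against 10.6 ± 5.17 in Hdc-GFPlo. The libraries' ranges of Gp9 and Pf4 touched or overlapped in both fractions. Gp5, Selp, Vwf and Gp1ba came next, at 2.75 to 5.14 CPM per kb in Hdc-GFPhi and 1.7 to 3.24 in Hdc-GFPlo, with each gene overlapping the next in the order. In Hdc-GFPlo, Pf4 did not overlap the next gene, and in both fractions the step from Gp1ba down to Ppbp and Gp1bb was free of overlap. Ppbp and Gp1bb lay at 1.1 and 0.969 CPM per kb in Hdc-GFPhi, and at 0.817 and 0.821 in Hdc-GFPlo.

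These levels put members that work together far apart. Pf4 was 12.7-fold above Ppbp per kb in Hdc-GFPhi and 13-fold above it in Hdc-GFPlo. Gp9 was 27.4-fold above its receptor partner Gp1bb in Hdc-GFPhi and 24.3-fold in Hdc-GFPlo, and it was 9.64-fold above Gp1ba in Hdc-GFPhi and 11.8-fold in Hdc-GFPlo. The longest Gp1bb and Gp6 transcripts in the annotation (2.085 and 5.9 kb) each have a shorter coding alternative there, so the levels of these genes per kb are low estimates where the shorter form is made.

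Summed over the 10 genes, the level was steadier than that of most single genes. The sum was 92.5, 103, 91.5 and 94.9 CPM in Hdc-GFPhi replicates 1 to 4, against 60.4, 72.4, 60.6 and 69.6 CPM in Hdc-GFPlo replicates 1 to 4. All Hdc-GFPhi libraries were above all Hdc-GFPlo libraries, with means ± SD of 95.6 ± 5.41 CPM in Hdc-GFPhi, against 65.7 ± 6.16 CPM in Hdc-GFPlo (n = 4 libraries each), a ratio of 1.45. Vwf, Selp and Gp9 supply most of the sum, and no test was made of it because the genes were chosen with earlier results known. The make-up of the sum differed between libraries of the same fraction. Vwf and Selp together were 59.3% of it in Hdc-GFPhi replicate 2 and 63.2% in Hdc-GFPlo replicate 2, but 31.9% in Hdc-GFPhi replicate 4 and 25.4% in Hdc-GFPlo replicate 3.

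**Figure D2:**
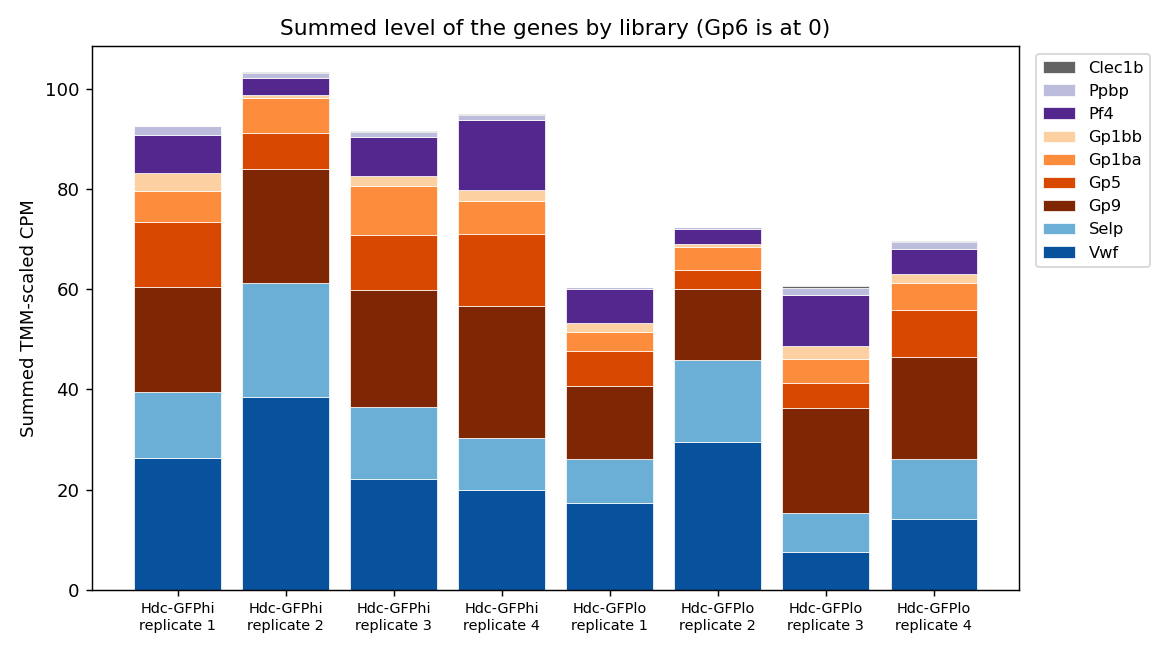
Summed TMM-scaled CPM (vertical axis) of the 10 genes in each library, Hdc-GFPhi left and Hdc-GFPlo right, with 1 colour per gene. The bars of the 4 Hdc-GFPhi libraries end between 91.5 and 103 CPM and those of the 4 Hdc-GFPlo libraries between 60.4 and 72.4 CPM, while the blue share of Vwf and Selp is largest in replicate 2 of both fractions.

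Of the 8 genes, 5 showed a contrast between libraries that recurred in both fractions. In replicate 2 of both fractions, Vwf and Selp were the highest of their fraction while Pf4, Gp5 and Gp1bb were the lowest. Replicate 2 was singled out after the values were seen, and no label says what the number marks. Over all tested genes, the deviations of Hdc-GFPhi replicate 2 and Hdc-GFPlo replicate 2 correlated at 0.35, so shared deviations were not limited to these genes. The deviation from the fraction's mean log2 CPM in replicate 2 was 0.58 for Vwf and -1.04 for Pf4 in Hdc-GFPhi, and 0.94 for Vwf and -0.89 for Pf4 in Hdc-GFPlo. As raw counts, there were 10.9 Vwf counts per Pf4 count in Hdc-GFPhi replicate 2 and 9.71 in Hdc-GFPlo replicate 2. The other libraries ran from 1.42 to 3.42 in Hdc-GFPhi and from 0.745 to 2.83 in Hdc-GFPlo. The reverse of the Vwf, Selp and Pf4 values was seen in Hdc-GFPhi replicate 4 and Hdc-GFPlo replicate 3, where Vwf and Selp were lowest and Pf4 and Gp9 highest of their fraction. Deviations of Hdc-GFPhi replicate 4 and Hdc-GFPlo replicate 3 correlated at 0.32 over all tested genes. Gp9 and Gp1ba moved little, with deviations of -0.28 to 0.41 over all libraries. Ppbp went with Pf4 in some libraries only. In Hdc-GFPlo, Ppbp was lowest in replicate 2 (-0.93), as Pf4 was, and was at 0.73 in replicate 3, where Pf4 was at 0.83. In Hdc-GFPhi replicate 4, Ppbp was at -0.34, where Pf4 was at 0.91. The highest values of Ppbp were in Hdc-GFPhi replicate 1 (0.59) and Hdc-GFPlo replicate 4 (0.77).

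Deviations were also set beside transcript length over all tested genes. Over the 656 tested genes with transcripts under 1 kb, the median deviation was 0.27 in Hdc-GFPhi replicate 4 and 0.40 in Hdc-GFPlo replicate 3, whereas it was -0.16 in Hdc-GFPhi replicate 2 and -0.14 in Hdc-GFPlo replicate 2. Over the 1669 genes with transcripts of 6 kb or more it was -0.05 in Hdc-GFPhi replicate 4 and -0.24 in Hdc-GFPlo replicate 3, whereas it was 0 in Hdc-GFPhi replicate 2 and 0.05 in Hdc-GFPlo replicate 2. The Pf4 transcript is 0.588 kb long and that of Vwf 8.834 kb. Gp9, at 0.881 kb, deviated by -0.03 and -0.28 in replicate 2 of Hdc-GFPhi and Hdc-GFPlo. In the same libraries, Ppbp (1.083 kb) deviated by -0.21 and -0.93, and Gp1bb (2.085 kb) by -1.74 and -1.23. There, Gp5 (2.197 kb) had -0.63 and -0.62, Gp1ba (2.71 kb) -0.04 and -0.02, and Selp (3.438 kb) 0.64 and 0.61. The median over the 5171 genes of 2 to 4 kb was 0.01 in both libraries. The part of length in these deviations was not tested. With a per-library trend on length and GC content removed, none of the 8 genes was called, and the log2 fold changes were 0.53 for Vwf and 0.53 for Pf4.

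**Figure D3:**
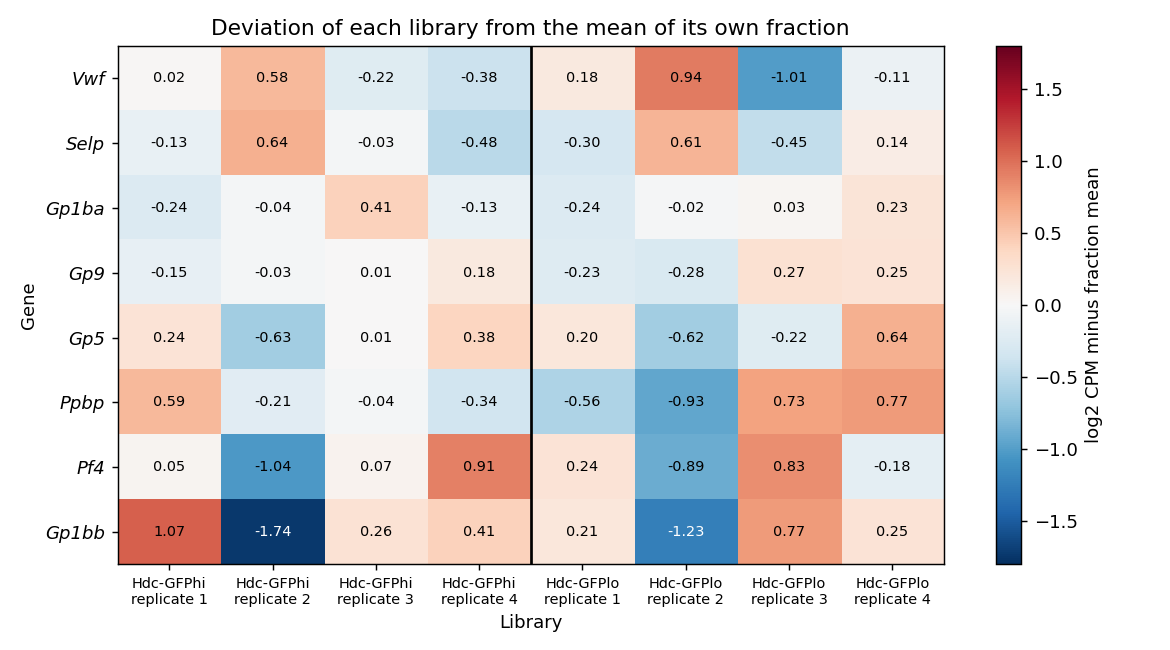
Deviation of each library from the mean log2 CPM of its own fraction (colour and printed value) for the 8 tested genes in rows, with Hdc-GFPhi libraries left of the line and Hdc-GFPlo libraries right of it. In replicate 2 of both fractions Vwf and Selp are above 0 (0.58 to 0.94) while Pf4, Gp5 and Gp1bb are below it (-0.62 to -1.74).

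Beyond the 10 genes, 103 other platelet and megakaryocyte genes could be tested, and 4 were called, 3 higher and 1 lower in Hdc-GFPhi. This is 3.88% of them, against 0.947% called in either direction over all tested genes, and their median log2 fold change was 0.07. In the list headed by megakaryocyte transcription factors, 19 genes were tested. Mef2c, a transcription factor of both lymphoid and megakaryocyte development, fell (log2 fold change -0.50 ± 0.10, edgeR adjusted p = 0.0287). Mef2c missed the threshold in 5 of 8 fits that each lacked a library (Hdc-GFPhi replicates 1 and 4, Hdc-GFPlo replicates 1, 2 and 4), at edgeR adjusted p values of up to 0.127. The stem and megakaryocyte factors Gata2, Nfe2 and Zfpm1 had log2 fold changes of 0.56, 0.33 and 0.51 (edgeR adjusted p = 0.0593, 0.162 and 0.201). Gata1 and Fli1, named above as activators, had log2 fold changes of 0.14 and 0.07 (edgeR adjusted p = 0.918 and 0.857). The median of this list was 0.07.

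Of 26 tested platelet surface receptors, 1 was called, the adhesion protein Esam described above, and the median was 0.13. Itga2b, the alpha chain of the fibrinogen receptor, had 88.9, 64.4, 88.5 and 76 CPM in Hdc-GFPhi, against 44.4, 43, 38.6 and 67.2 CPM in Hdc-GFPlo. Hdc-GFPlo replicate 4 was above Hdc-GFPhi replicate 2, so the fractions overlapped, and the log2 fold change was 0.72 ± 0.18 (edgeR adjusted p = 0.0862, and 0.0159 without Hdc-GFPlo replicate 4). Its partner Itgb3 had 13.9 ± 1.22 CPM in Hdc-GFPhi, against 12.4 ± 4.12 CPM in Hdc-GFPlo, a log2 fold change of 0.17 (mean ± SD of 4 libraries each). The purine receptors went opposite ways in value without being called. P2rx1, an ATP-gated channel, had a log2 fold change of 0.52 (edgeR adjusted p = 0.12), and P2ry12, the platelet ADP receptor, had -1.86 (edgeR adjusted p = 0.0653) from 76 counts in Hdc-GFPhi and 242 in Hdc-GFPlo.

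Of 33 tested granule, cytoskeleton and secretion genes, 1 was called and the median was 0.09. It was Ptgs1, the cyclooxygenase that starts thromboxane synthesis in platelets, which rose by 0.63 ± 0.12 on the log2 scale (edgeR adjusted p = 0.0242). Ptgs1 had 120, 148, 136 and 130 CPM in Hdc-GFPhi, against 72.5, 100, 82.2 and 89.5 CPM in Hdc-GFPlo. Ptgs1 missed the threshold in 5 of 8 fits that each lacked a library (Hdc-GFPhi replicates 2, 3 and 4, Hdc-GFPlo replicates 1 and 4), at edgeR adjusted p values of up to 0.103. Tbxas1, the thromboxane synthase that acts after it, had a log2 fold change of 0.41 (edgeR adjusted p = 0.0851). Gng11, a G protein subunit, had 0.73 (0.106), and Plek, the platelet protein kinase C substrate pleckstrin, had -0.66 (0.066). The late platelet genes Tubb1 and Treml1 were near the bottom of the range. Treml1 had 2.2 ± 0.836 CPM in Hdc-GFPhi, against 1.27 ± 0.414 CPM in Hdc-GFPlo (mean ± SD of 4 libraries each). Tubb1, the platelet tubulin, had 2.9, 2.85, 2.8 and 0.223 CPM in Hdc-GFPhi, against 0.752, 0.95, 1.05 and 1.17 CPM in Hdc-GFPlo, so that only Hdc-GFPhi replicate 4 fell below the Hdc-GFPlo libraries.

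**Figure D4:**
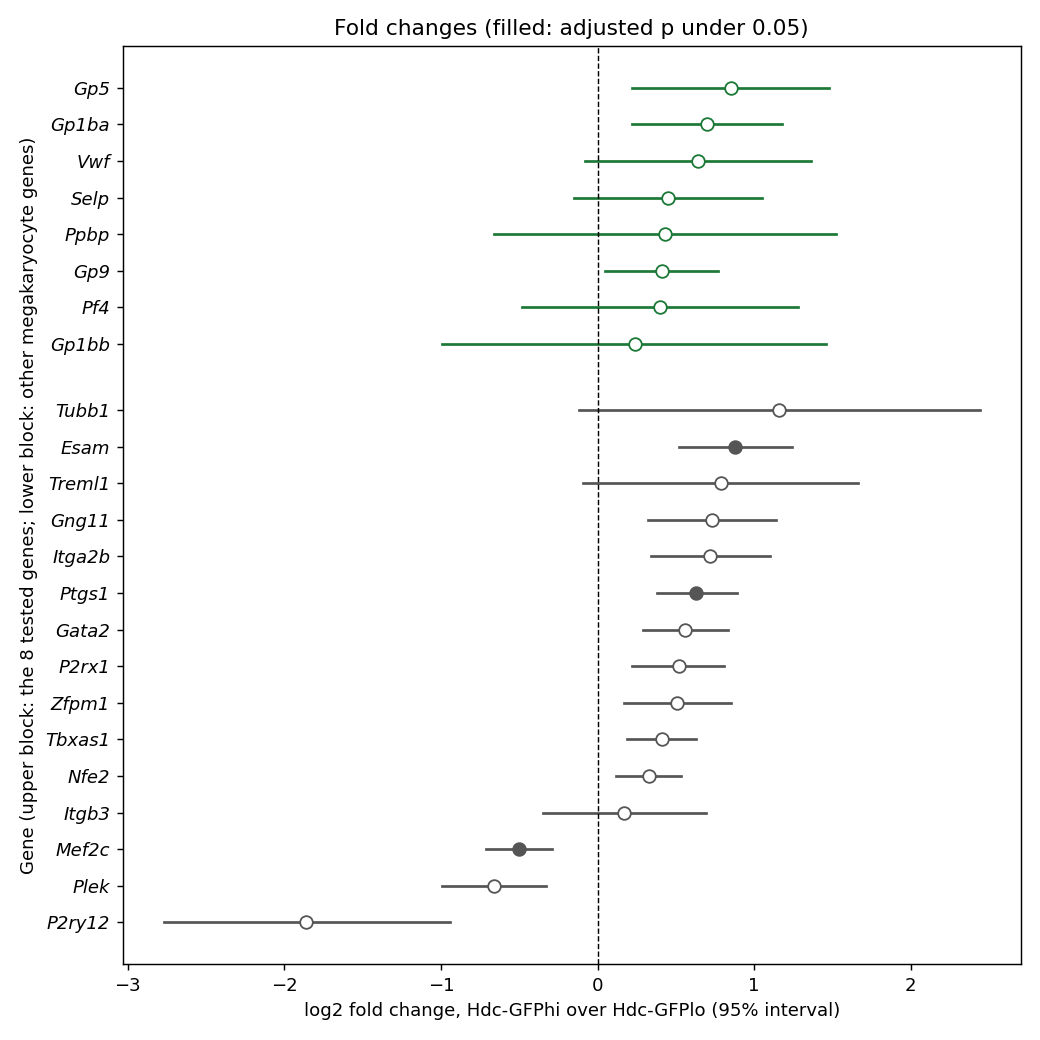
Log2 fold change of Hdc-GFPhi over Hdc-GFPlo (horizontal axis) with its 95% interval for the 8 tested genes (upper block, green) and for other megakaryocyte genes (lower block, grey), where filled points had an edgeR adjusted p under 0.05. All 8 green points lie above 0 and are open, and the filled points are Esam and Ptgs1 above 0 and Mef2c below it.

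None of the 25 signalling partners of Gp6, Clec1b and the von Willebrand factor receptor was called by edgeR, and 9 had an unadjusted p under 0.05, of which 8 were lower in Hdc-GFPhi. Over all tested genes, 5.56% were lower at an unadjusted p under 0.05. Over the 4 pathway lists together, DESeq2 and limma voom each called 12 of 103 genes, a count that was not split by list. Over all 13300 tested genes, DESeq2 called 404 and limma voom 278. Rasgrp2, Tec and Rap1b, which act between these receptors and integrin activation, had log2 fold changes of -0.32, -0.34 and -0.34 (edgeR adjusted p = 0.235, 0.269 and 0.294). Of 9 tested ligands and regulators of the 10 genes, none was called by edgeR, 1 had an unadjusted p under 0.05 and 8 had a log2 fold change below 0. Selplg, the ligand of P-selectin, and the chemokine receptor Ccr1 had log2 fold changes of -0.11 and -0.52. Of 8 tested genes that neighbour the 10 in the reference gene table, none was called by edgeR and 2, among them Atp13a3 next to Gp5, had an unadjusted p under 0.05. Atp13a3 had a log2 fold change of -0.64, against 0.85 for Gp5, and Rab43, next to Gp9, had 0.22.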

How the data were processed

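The authors deposited whole-number read counts per gene, not normalized, for the 8 libraries of sorted LSK cells. The submitters' processing notes name HTSeq 0.6.1, TopHat2 2.04, Bowtie2 and bcl2fastq 1.8.4, and the build mm9. Tool settings, annotation and strandedness are not given in the sources, so overlapping or antisense genes cannot be told apart. Per the labels' protocols, SMARTer amplification was followed by Nextera XT tagging, and no molecular identifiers are named, so repeated reads of a molecule are counted separately.

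Titles gave the groups and replicate numbers, and Hdc-GFPhi replicate 4 was kept in its titled group. Genes were kept with filterByExpr (13300 of 23284) and scaled by TMM, and Hdc-GFPhi was tested against Hdc-GFPlo with edgeR 4.0.16 quasi-likelihood (robust, without covariates, R 4.3.3), using Benjamini-Hochberg adjustment over all tested genes and a threshold of 0.05. A gene is called when it passed that threshold. Fold changes are Hdc-GFPhi over Hdc-GFPlo, with SE and 95% intervals from that fit. CPM values are TMM-scaled, with a prior count of 2 on the log2 scale. The code was tested on simulated data. Totals were 16726179 to 23051277 counts per library, which are reads and do not give the number of molecules captured.

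The 10 genes and the lists were chosen with earlier results of these data known. The named genes are the 10, and of each list every called gene and the 3 others with the smallest p. Gata1, Fli1, Tubb1, Treml1, Itgb3, Syk, Fcer1g, Pdpn and the marker genes beyond these were named after their values were seen. Alternatives were other scalings, filters and tests (DESeq2 1.42.0, limma 3.58.1 voom), a block on the replicate number, a covariate that sets replicates 1 and 2 apart from 3 and 4, leaving out each library and, chosen after seeing the data, leaving out both replicates 2 and removing a length and GC trend (95.2% of tested genes had a GENCODE M21 length). Promoter sequences are from RefSeq on GRCm38.p6, a different build from that of the counts. Some genes of the lists are counted in the totals but not reported here.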

Additional observations from a re-analysis of the deposited data

How the results depend on the processing

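The 8 tested genes were called in no alternative except 1. With the replicate block, 1 gene, Gp5, was called higher (log2 fold change 0.88, adjusted p = 0.0405). Deviations of same-numbered libraries correlated at 0.26, 0.35, 0.08 and 0.10 over genes. Of the 4 Hdc-GFPhi libraries, 2 (replicates 1 and 2) correlated best with their own number. Hdc-GFPhi replicate 3 correlated best with Hdc-GFPlo replicate 4 (0.21), and Hdc-GFPhi replicate 4 with Hdc-GFPlo replicate 3 (0.32). Since not all 4 same-number correlations were above 0.1 and no label says what the number marks, the numbers were not taken to pair the samples. A pairing by the best correlation was not tested. Gp5 kept a log2 fold change of 0.68 to 1.11 over 20 alternatives. Gp1bb changed sign when either Hdc-GFPhi replicate 1 (-0.17) or Hdc-GFPlo replicate 2 (-0.04) was left out, with a range of -0.17 to 0.57 over the single libraries left out, and Gp1bb and Ppbp could not be fitted with at least 50 counts in 4 libraries. With no filter beyond 1 count, the fitted log2 fold change of Clec1b was -0.71 (edgeR adjusted p = 0.885). The other 7 tested genes kept their direction in every alternative that gave a value.

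Calls among the 103 other platelet and megakaryocyte genes numbered 4, and 12 with DESeq2, voom or the length and GC trend removed, 9 with replicates 1 and 2 set apart from 3 and 4 and 2 without both replicates 2. Over all tested genes there were 126 calls, against 404 with DESeq2, 278 with voom, 276 with the length and GC trend removed, 275 with that covariate, 224 with the replicate block and 81 without both replicates 2. Leaving out 1 library gave 1 to 7 calls among the 103 genes, 52 to 146 over all genes and 0 to 0 among the 8. The causes of these shifts were not tested. At 6 to 79 counts per library, Ppbp and Gp1bb have wide intervals, and differences of the fitted size were not detectable.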
